A study of Mus musculus with 12 samples.

Results

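Gene expression was followed from embryonic stem cells to anterior neural progenitors in wild-type mouse cells. The comparison covered the 12481 genes with at least 1 FPKM in at least 2 of its 6 RNA-seq libraries, which were 58.7% of the 21253 genes in the table. FPKM are fragments counted per length of transcript and per size of library, so levels of different genes may be compared on this scale. Of the 6 libraries, 2 were of WT mouse embryonic stem cells (mESC) and 4 of WT anterior neural progenitors (AntNPC). WT stands for the E14 line. Its mESC were grown on gelatin in KO-DMEM with 15% FBS and LIF, a cytokine that keeps stem cells undifferentiated. For AntNPC, mESC were plated at 10000 cells per cm2 in N2B27 medium, which has neither serum nor LIF, with 10 ng/ml bFGF for 3 days and then without bFGF for 2 days. Xav939, an inhibitor of WNT signalling, was added at 5 uM from day 2 until the end at day 5. The same model also held 2 mESC and 4 AntNPC libraries of 1 line labelled EED-/-, grown and differentiated in the same way, and these served here for the estimate of spread and for 1 comparison at the end. EED is a core subunit of the Polycomb complex PRC2. Eed RNA was higher under that label, with 644 and 376 FPKM in mESC labelled EED-/- and 66.2 and 163 FPKM in WT mESC. Nothing read here names the allele, so the label could not be checked from RNA. Whether the libraries of a group stem from separate cultures is not in the labels, so p-values reflect the spread among these libraries only, and that spread may be technical. RNA came from whole cultures, where fewer cells of a type and less RNA per cell cannot be told apart.

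Mouse embryonic stem cells hold the state of the early epiblast through a network of transcription factors around POU5F1, SOX2 and NANOG, joined in the naive state by ESRRB, KLF and TFCP2L1 factors that LIF sustains through STAT3. When LIF is withdrawn, the naive factors are lost and cells pass through a formative state before they choose a lineage, and in the absence of NODAL, BMP and WNT signals that lineage is mostly anterior neural. Neural progenitors are marked by SOX1, PAX6 and nestin, exchange E-cadherin for N-cadherin, and receive a regional identity (forebrain, midbrain or more caudal) from WNT, FGF and retinoic acid signals.

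The labels were set beside 8 markers of each cell type. Gene lists were chosen with earlier results of these data known, and Klf4, Sox21 and Fabp7 were named after their values were seen. The outcome is therefore a description and not an independent check of the labels. All 8 stem cell markers were higher in both mESC libraries than in any AntNPC library. They were Pou5f1, Nanog, Zfp42, Esrrb, Klf4, Tfcp2l1, Dppa5a and Tdgf1. The 8 progenitor markers (Sox1, Pax6, Nes, Otx2, Six3, Sox21, Lhx5 and Fabp7) were all higher in the 4 AntNPC libraries than in either mESC library. The lowest of them was Fabp7, a fatty acid binding protein of radial glia, which was listed at 0 in both mESC libraries and at 0.402, 4.51, 6.55 and 6.75 FPKM in AntNPC.

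The libraries differed in ways other than cell type. The sum of FPKM was 453550 and 864235 in mESC replicates 1 and 2 and 469864 to 539608 in AntNPC, and ribosomal protein genes held 16.8% and 34.7% of it in mESC and 14.4% to 23.7% in AntNPC. Read depth cannot be recovered from FPKM and is unknown. The mESC pair correlated at 0.878, AntNPC replicates 2 to 4 at 0.995 to 0.996 with each other and at 0.953 to 0.954 with AntNPC replicate 1, all across genes and not over independent samples. The difference between the mESC libraries moved with gene length: replicate 2 minus replicate 1 had a median of 0.53 on the log2 scale over the 396 genes with under 1000 exonic bases and of -0.62 over the 2251 genes with 8000 or more. The change to AntNPC moved with length as well, from a median log2 fold change of -0.71 in the shortest genes, where 5.3% rose and 31.8% fell, to 0.70 in the longest, where 45.2% rose and 8.17% fell. Against mESC replicate 1 alone the median ran from -0.60 to 0.35, and against replicate 2 alone from -0.98 to 1.08. With a correction for length, 190 of the 203 genes given by the naming rule kept their direction and their side of the threshold, 11 lost their call and 2 turned in direction.

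**Figure D1:**
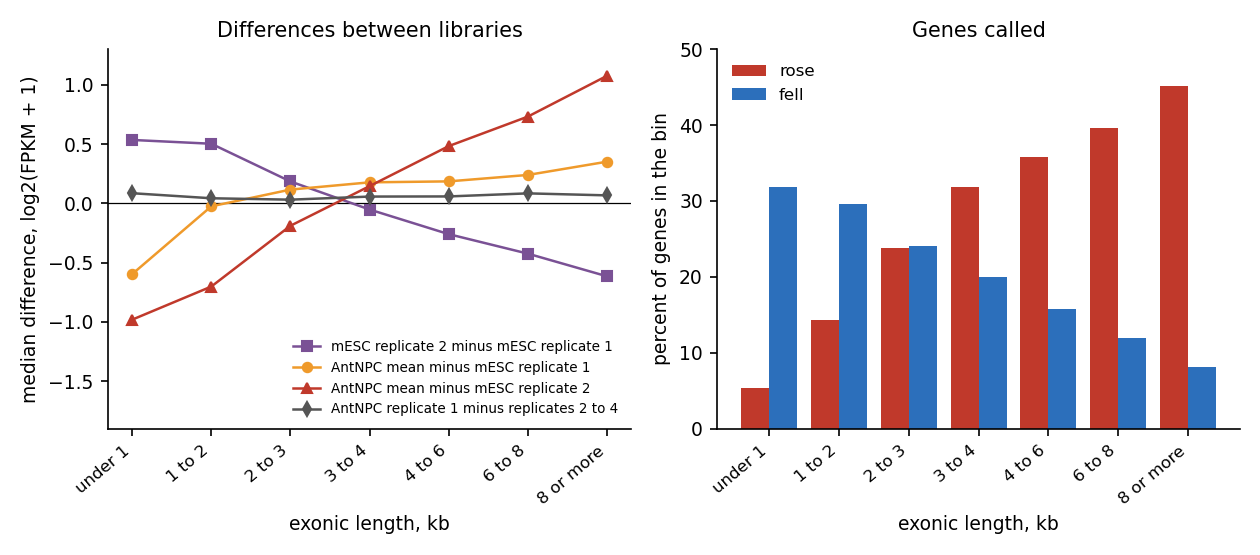
Left, median difference in log2(FPKM + 1) between the named libraries for genes binned by exonic length in kb, and right, the percent of genes in each bin that rose or fell in AntNPC against mESC. The mESC libraries differ by 0.53 in the shortest and by -0.62 in the longest genes, whereas AntNPC replicate 1 and replicates 2 to 4 differ by 0.03 to 0.09 in every bin.

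Of the 12481 genes, 4034 rose and 2215 fell in AntNPC at an adjusted p under 0.05 (limma, Benjamini-Hochberg adjustment over all genes tested), and 6232 did not pass. These are 32.3% and 17.7% of them, beside 30.1% and 18.1% of all 13678 genes tested with the EED-/- libraries included (48.2% in either direction). The counts within gene lists given below are to be read beside these shares. At least 2-fold changes were seen in 2675 genes that rose and 1526 that fell, and changes of at least 16-fold in 60 and 96. The groups did not overlap in 4627 genes that were higher (37.1%) and 2595 that were lower (20.8%) in AntNPC. All 4 AntNPC libraries reached 1 FPKM and both mESC libraries stayed under it for 717 genes, and the reverse held for 615 genes. The median log2 fold change was 0.24, so values are to be read against a median that was not 0. The share of called genes that rose was 64.6%. It was 50.3% (3102 rose and 3061 fell) with median-of-ratios scaling, 55.7% (3391 and 2698) with quantile normalization and 51.3% (3133 and 2976) after a correction for length, with medians of -0.04, 0.08 and -0.005. The balance between rises and falls therefore rests on the scaling, and the named genes below were checked under each one.

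**Figure D2:**
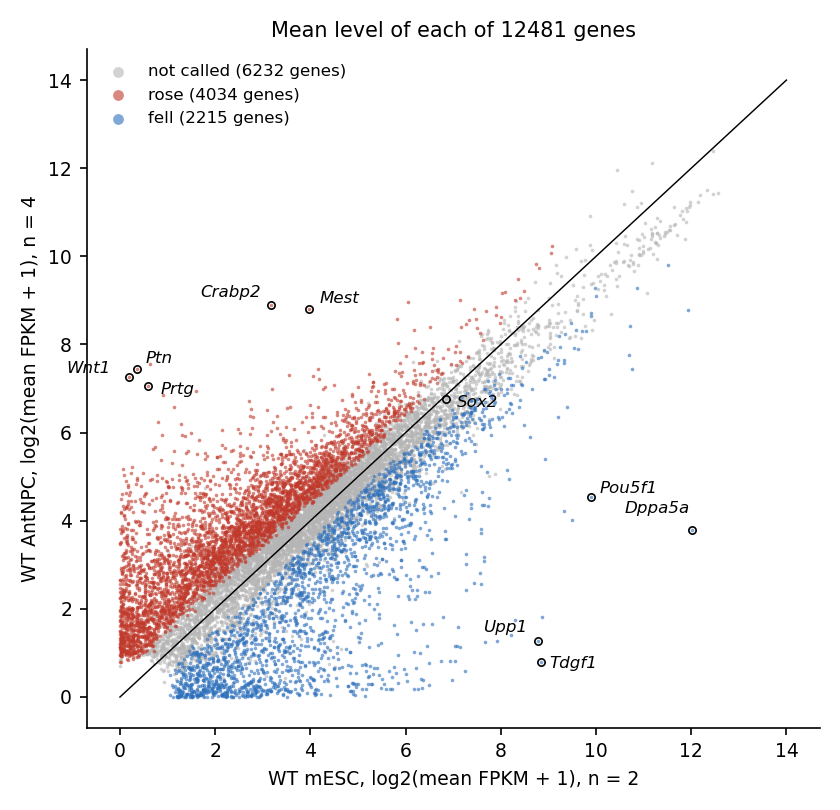
Each point is 1 of the 12481 genes, with its mean level in WT mESC (n = 2) on the horizontal axis and in WT AntNPC (n = 4) on the vertical axis, both as log2(mean FPKM + 1). Genes that rose (4034) lie above the line of equal level and genes that fell (2215) below it, and the circled genes are described in the text.

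The core and naive pluripotency factors fell. Pou5f1 (chromosome 17, 35506018 to 35510772, GRCm38), the POU factor at the centre of the network, was at 648 and 1254 FPKM in mESC and at 47.3, 13.6, 13.3 and 15 FPKM in AntNPC replicates 1 to 4. The groups lay far apart and AntNPC replicate 1 kept the most. Its log2 fold change on the log2(FPKM + 1) scale, used for every change given here, was -5.49 ± 0.49 (SE; limma adjusted p = 5.64e-06). Nanog, its homeobox partner, was at 114 and 267 FPKM in mESC and 8.9, 3.7, 3.22 and 3.9 FPKM in AntNPC (-4.98 ± 0.37, adjusted p = 1.39e-06). Sox2, the factor that stem cells and neural progenitors share, was at 108 and 121 FPKM in mESC and 116, 111, 99.2 and 105 FPKM in AntNPC. Its groups overlapped and its log2 fold change was -0.09 ± 0.18 (adjusted p = 0.724). That difference had a positive sign when values were rescaled to an equal sum per library (0.19), after quantile normalization (0.18) and after length correction (0.065), and did not pass in any of them.

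Among 16 naive pluripotency factors 14 fell, 1 rose and 1 did not pass. Their median log2 fold change was -4.72, beside 0.24 over all 12481 genes. Of the 16, 10 were under 1 FPKM in all 4 AntNPC libraries and entered through mESC alone, so a fall was nearly fixed for them. Esrrb, an orphan nuclear receptor, was at 117 and 145 FPKM in mESC and at 0.403, 0.797, 0.947 and 0.915 FPKM in AntNPC (-6.23 ± 0.20, limma adjusted p = 2.42e-08). Zfp42, a zinc finger gene used as a stem cell marker, was at 131 and 460.0 FPKM in mESC and 1.21, 1.72, 1.9 and 1.84 FPKM in AntNPC (-6.54). For both genes mESC replicate 2 was the higher of the pair and every AntNPC library was at 2 FPKM or less. Tfcp2l1 and Tbx3, further factors of this state, fell as well, Tfcp2l1 from 47.2 and 26.2 to between 0.266 and 0.604 FPKM (-4.72) and Tbx3 from 24.6 and 36 to between 0.145 and 0.211 FPKM (-4.72). Gbx2, which acts in naive cells and again at the midbrain-hindbrain boundary, did not pass. The 1 that rose, Sall1, a spalt-type zinc finger gene that neural progenitors also use, had 11.7 and 17.8 FPKM in mESC and 44.2, 26.1, 23.1 and 24.4 FPKM in AntNPC (0.93 ± 0.35, adjusted p = 0.0456). Its call was lost in 12 of 18 alternatives, among them without mESC replicate 1 (0.65, adjusted p = 0.22) and without AntNPC replicate 1 (0.72, adjusted p = 0.096).

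**Figure D3:**
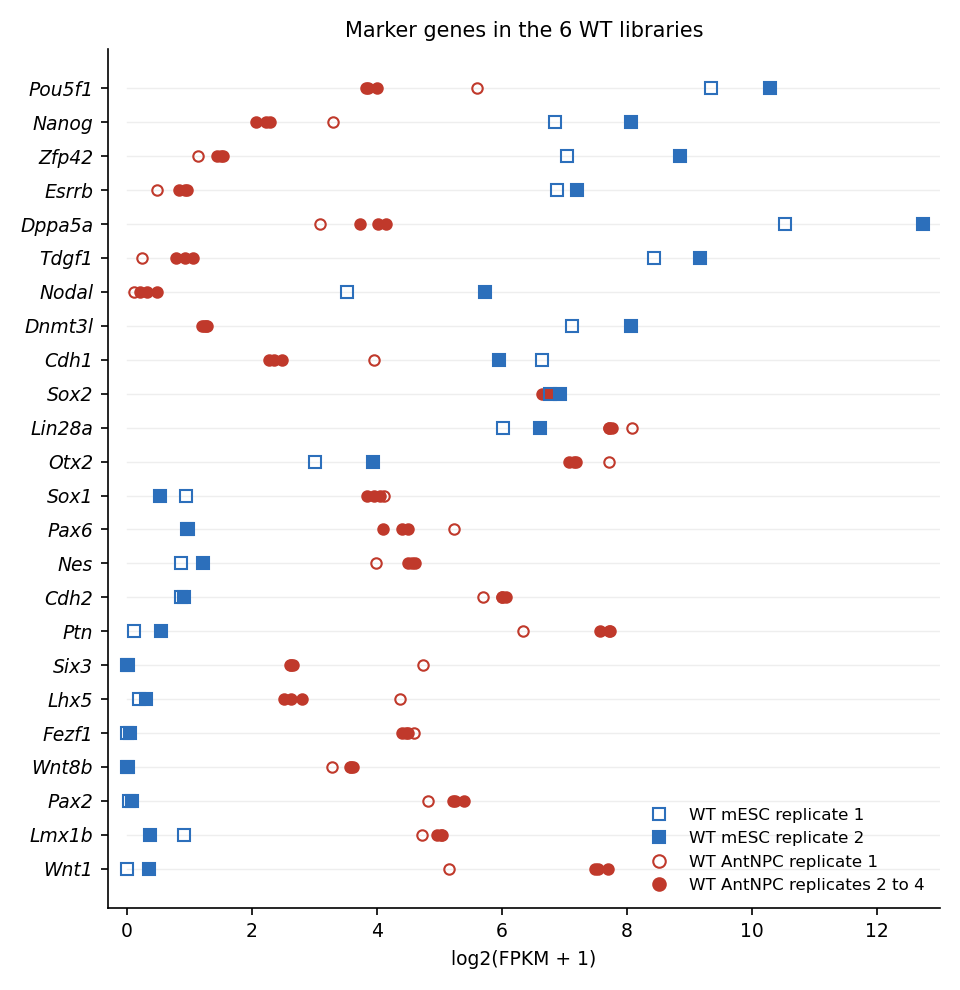
Level of 24 marker genes as log2(FPKM + 1) in each of the 6 WT libraries, with squares for mESC and circles for AntNPC and open symbols for replicate 1 of each. The top 9 genes are lower in all AntNPC libraries, Sox2 overlaps, and the rest are higher, with AntNPC replicate 1 highest for Six3 and Lhx5 and lowest for Wnt1.

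Of 20 core and general stem cell genes 13 fell, 2 rose and 5 did not pass, among them Sox2, Sall4, Rif1 and Trim71, with a median of -3.26. The largest falls of all genes were in Tdgf1 and Dppa5a, with Dppa5a (-8.98) ahead of Tdgf1 (-8.4) where mESC replicate 1 was left out. Tdgf1 (chromosome 9, 110939603 to 110946158) encodes the NODAL co-receptor CRIPTO. Its level was 343 and 571 FPKM in mESC and 0.182, 0.728, 1.09 and 0.915 FPKM in AntNPC (-8.04 ± 0.58, limma adjusted p = 1.16e-06). Dppa5a, which encodes an RNA-binding protein of stem cells, was at 1469 and 6767 FPKM in mESC and 7.53, 12.3, 15.1 and 16.7 FPKM in AntNPC (-7.88). Tdh, threonine dehydrogenase, which feeds glycine and acetyl-CoA to mouse stem cells, was at 83 and 398 FPKM in mESC and 0.801, 1.26, 1.57 and 1.98 FPKM in AntNPC (-6.28). In all 3 genes mESC replicate 2 was the higher, in Dppa5a and Tdh by over 4 times, and no AntNPC library came near either mESC library. The 2 genes that rose were the paralogs Lin28a and Lin28b, which block maturation of let-7 microRNAs. Lin28a went from 64.1 and 97 FPKM to 269.6, 215, 209.9 and 209 FPKM (1.5 ± 0.21, adjusted p = 0.000159) and Lin28b from 1.36 and 2.54 to 28.8, 28.1, 24 and 25.8 FPKM (3.26).

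Genes of the LIF pathway fell with the naive factors. Of 18 LIF and STAT3 target genes, 14 fell, none rose and 4 did not pass (Il6st, Gbx2, Myc and Sall4), with a median of -2.47. A fall was nearly fixed for the 5 of the 18 that were under 1 FPKM in all AntNPC libraries. Socs3, the feedback inhibitor that STAT3 induces, was at 60.7 and 75.6 FPKM in mESC and 1.15, 2.51, 2.68 and 2.59 FPKM in AntNPC (-4.44 ± 0.24, limma adjusted p = 1.68e-07). Pim1, a kinase induced by the same pathway, was at 50.4 and 31.8 FPKM in mESC and 3.25, 3.08, 3.31 and 3.65 FPKM in AntNPC (-3.25). This list shares Klf4, Tfcp2l1, Klf5 and Gbx2 with the naive factors, so the counts of both are not separate.

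In the NODAL and TGF-beta pathway 10 of 18 genes fell, 6 rose and 2 did not pass (Acvr1b and Foxh1). As 8 of the 18 were under 1 FPKM in all AntNPC libraries and entered through mESC alone, a fall was nearly fixed for these. Nodal, the ligand, was at 10.5 and 52 FPKM in mESC and 0.0827, 0.164, 0.408 and 0.25 FPKM in AntNPC (-4.34 ± 0.45, limma adjusted p = 1.66e-05). Gdf3, a related ligand, was at 13.7 and 63.9 FPKM in mESC and 0.456, 0.387, 0.341 and 0.53 FPKM in AntNPC (-4.44), and the ligand Tgfb1 at 4.55 and 6.44 FPKM in mESC and 0.188, 0.176, 0.312 and 0.12 FPKM in AntNPC (-2.42). Lefty1 and Lefty2, secreted NODAL antagonists that NODAL itself induces, were much higher in mESC replicate 2 than in replicate 1. Lefty1 was at 1.99 and 28.1 FPKM in mESC and 0.0744, 0.175, 0.19 and 0.227 FPKM in AntNPC, and its log2 fold change of -3.0 (adjusted p = 0.00435) was -1.36 with mESC replicate 1 alone and -4.64 with replicate 2 alone. Lefty2 was at 1.14 and 5.9 FPKM in mESC and 0, 0.184, 0.0425 and 0.0379 FPKM in AntNPC (-1.85, adjusted p = 0.00911), and with mESC replicate 1 alone it did not pass (-1.0, adjusted p = 0.12). On the receiving side, the receptors Tgfbr1 and Acvr2a and the signal transducer Smad3 rose. Tgfbr1 went from 6.52 and 1.45 to between 23.4 and 27.6 FPKM, Acvr2a from 2.87 and 2.3 to between 7.55 and 9.8 FPKM and Smad3 from 4.69 and 1.18 to between 16.3 and 17.5 FPKM.

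Of 18 genes of FGF signalling 4 rose, 5 fell and 9 did not pass, where 32.3% of all 12481 genes rose and 17.7% fell. The 5 that fell were the ligand Fgf4 and the feedback or target genes Etv4, Etv5, Spry2 and Spry4. Of the 18, Fgf4, Etv4 and Spry4 were under 1 FPKM in all AntNPC libraries and entered through mESC alone, so a fall was nearly fixed for these 3. A rise was nearly fixed for the 2 of the 18, Spred3 among them, that were under 1 FPKM in both mESC libraries. Fgf4, which primes stem cells to leave the naive state, was at 87.5 and 71.8 FPKM in mESC and 0.178, 0.219, 0.41 and 0.472 FPKM in AntNPC (-5.93 ± 0.32, limma adjusted p = 1.85e-07). Etv4, an ETS factor downstream of ERK, was at 32 and 66.6 FPKM in mESC and 0.449, 0.507, 0.668 and 0.416 FPKM in AntNPC (-4.97), and its relative Etv5 at 19.7 and 43 FPKM in mESC and 0.762, 2.14, 2.65 and 3.18 FPKM in AntNPC (-3.32). The ERK inhibitors Spry4 and Spry2 were again higher in mESC replicate 2. Spry4 was at 2.95 and 50.2 FPKM in mESC and 0.0937 to 0.226 FPKM in AntNPC (-3.58; -1.74 with mESC replicate 1 alone and -5.43 with replicate 2 alone). Spry2 was at 11.3 and 34.8 FPKM in mESC and 2.13 to 7.76 FPKM in AntNPC (-1.72), and did not pass with mESC replicate 1 alone (-0.95, adjusted p = 0.21). The 4 that rose were the receptors Fgfr1, Fgfr2 and Fgfr3 and the ERK inhibitor Spred3. Fgfr2 was at 1.29 and 1.11 FPKM in mESC and 127, 87.4, 82.1 and 84.4 FPKM in AntNPC (5.43 ± 0.19, adjusted p = 2.42e-08). Fgfr1 went from 36.9 and 19.7 to between 101 and 136 FPKM (2.0) and Fgfr3 from 1.87 and 0.184 to between 4.96 and 5.59 FPKM (1.75; 1.11 with mESC replicate 1 alone). Spred3 was at 0.353 and 0.937 FPKM in mESC and 1.44, 7.29, 7.06 and 7.84 FPKM in AntNPC (1.93), and did not pass without mESC replicate 1 (1.67, adjusted p = 0.07).

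Formative and primed epiblast genes went both ways: of 16 genes 7 rose, 4 fell and 5 did not pass (Dnmt3a, Fgf15, Lef1, Pim2 and Fgf8). Of the 16, 2 were under 1 FPKM in both mESC libraries and 2 in all AntNPC libraries, so that their direction was nearly fixed. Those that rose include genes that anterior neural cells go on using. Otx2, a homeobox factor of the formative epiblast and later of forebrain and midbrain, was at 7.11 and 14.3 FPKM in mESC and 208, 141, 134 and 144 FPKM in AntNPC (3.8 ± 0.35, limma adjusted p = 6.71e-06). Sox3 went from 0.86 and 0.846 to between 29.4 and 32.5 FPKM (4.09), and the secreted WNT antagonist Sfrp2 from 5.84 and 3.2 to between 31.3 and 42.2 FPKM (2.82). The 4 that fell were Nodal, Foxd3, Cldn6 and Grhl2. Foxd3, a forkhead factor of the epiblast and the neural crest, was at 1.96 and 31.7 FPKM in mESC and 0.0811 to 0.136 FPKM in AntNPC (-3.15; -1.41 with mESC replicate 1 alone and -4.88 with replicate 2 alone). Cldn6, a claudin of early epithelia, fell from 21.4 and 35 to between 2.14 and 4.23 FPKM (-2.9), and the epithelial factor Grhl2 from 4.01 and 3.97 to between 0.384 and 1.05 FPKM (-1.62). Fgf5, the best-known marker of the primed epiblast, reached 1 FPKM in 1 library only and was not among the 12481 genes: its level was 0.0429 and 0.0776 FPKM in mESC and 4.99, 0.802, 0.901 and 0.857 FPKM in AntNPC replicates 1 to 4.

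Pan-neural progenitor genes rose: 25 of 32 rose, 1 fell and 6 did not pass, with a median of 2.15. In this list 19 of the 32 were under 1 FPKM in both mESC libraries and entered through AntNPC alone, so the count is a description. Sox1, the earliest SOX factor restricted to the neural lineage, was at 0.934 and 0.442 FPKM in mESC and 16.3, 15.6, 13.4 and 14.4 FPKM in AntNPC (3.25 ± 0.19, limma adjusted p = 3.53e-07). Pax6, a paired-box factor of forebrain and eye progenitors, was at 0.973 and 0.96 FPKM in mESC and 36.7, 16.2, 21.7 and 20.3 FPKM in AntNPC (3.59 ± 0.31, adjusted p = 3.96e-06). Nes, which encodes the intermediate filament nestin, was at 0.834 and 1.32 FPKM in mESC and 14.9, 21.6, 23.4 and 22.8 FPKM in AntNPC (3.37). In each of the 3 genes the groups lay apart, with AntNPC replicate 1 highest for Pax6 and lowest for Nes. The largest rise of all genes was in Ptn (chromosome 6, 36714929 to 36810220), which encodes the secreted growth factor pleiotrophin of radial glia. It was at 0.0811 and 0.473 FPKM in mESC and 79.5, 189, 209 and 211 FPKM in AntNPC (7.0 ± 0.34, adjusted p = 9.78e-08), with AntNPC replicate 1 far below the other 3 libraries. Sox9, a SOX factor of neural stem cells, rose from 0.196 and 0.0455 to between 17.4 and 26.1 FPKM (4.21). The 1 that fell was Vim, which encodes vimentin, an intermediate filament of stem cells and neural progenitors alike. It was at 83 and 172 FPKM in mESC and 27.3, 60.4, 66.7 and 65.2 FPKM in AntNPC (-1.19 ± 0.39, adjusted p = 0.026), and did not pass with mESC replicate 1 alone (-0.67, adjusted p = 0.25).

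Regulators of both forebrain and midbrain rose. Of 25 forebrain and eye field regulators in the table, 17 were measured at the threshold of 1 FPKM, 16 of these rose and Fzd5 did not pass. As 13 of the 17 were under 1 FPKM in both mESC libraries, a rise was nearly fixed by the filter, and 7 of the 25 were under 1 FPKM in all 6 libraries. Six3, a homeobox factor of the anterior forebrain and eye, was at 0 and 0.0115 FPKM in mESC and 25.7, 5.21, 5.31 and 5.09 FPKM in AntNPC (3.15 ± 0.50, limma adjusted p = 0.000368). Lhx5, a LIM homeobox gene of the anterior forebrain, was at 0.153 and 0.236 FPKM in mESC and 19.7, 4.75, 6.03 and 5.17 FPKM in AntNPC (2.83 ± 0.44, adjusted p = 0.000302). Both were over 3 times higher in AntNPC replicate 1 than in any other AntNPC library, and both rose without that library too. Fezf1, a forebrain zinc finger factor, and Wnt8b, a WNT ligand of the dorsal forebrain, varied less: Fezf1 was at 0 and 0.0346 FPKM in mESC and 23.2, 20.2, 21.5 and 21.1 FPKM in AntNPC (4.47) and Wnt8b at 0.0156 and 0 FPKM in mESC and 8.72, 11.4, 10.8 and 11 FPKM in AntNPC (3.5). Shisa2, which holds back maturation of FGF and WNT receptors in the head, rose from 2.7 and 1.34 to 176, 109.7, 101 and 104 FPKM (5.35).

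Of 19 midbrain and midbrain-hindbrain boundary regulators 13 rose, 1 fell and 5 did not pass (Pax8, Fgf8, Gbx2, Spry1 and Il17rd). As 12 of the 19 were under 1 FPKM in both mESC libraries, a rise was nearly fixed for these by the filter. Wnt1 (chromosome 15, 98789857 to 98793837), the WNT ligand of the boundary, was listed at 0 in mESC replicate 1 and at 0.281 FPKM in replicate 2. In AntNPC it was at 34.6, 208, 179.6 and 184 FPKM (6.79 ± 0.58, limma adjusted p = 3.83e-06), with replicate 1 far below the other 3 libraries. Pax2, a paired-box factor of the same region, was at 0.0305 and 0.0618 FPKM in mESC and 27.3, 41.3, 36.9 and 36.1 FPKM in AntNPC (5.11). Lmx1b and Lmx1a, LIM homeobox factors of the midbrain, went from 0.898 and 0.296 to 25.3, 32.1, 30.3 and 31.6 FPKM (4.29) and from 0.0992 and 0.119 to 6.96, 11.4, 11.6 and 11 FPKM (3.32). All 4 of these midbrain genes were lowest in AntNPC replicate 1, the library where Six3 and Lhx5 were highest. The 1 that fell was Fgf17, an FGF ligand of the boundary, from 5.19 and 26.9 FPKM in mESC to between 0.0389 and 0.101 FPKM in AntNPC (-3.63).

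Markers of more caudal and of other lineages were mostly below the threshold. Of 38 Hox genes in the table, which pattern hindbrain and trunk, 37 were under the entry level and their values did not exceed 0.922 FPKM in any of the 6 libraries. The summed level of the 38 was 10.0 and 4.39 FPKM in mESC and 0.753 to 0.831 FPKM in AntNPC. Hoxc13 was the only one measured, and fell from 4.78 and 1.45 to between 0.0286 and 0.139 FPKM (-1.78; -1.16 with mESC replicate 2 alone). In the tailbud list the defining genes T and Cdx2 stayed under 1 FPKM in all 6 libraries. Of its 5 measured members 3 rose, Fgf17 fell and Fgf8 did not pass, with 4 of the 5 under 1 FPKM in both mESC libraries, for which a rise was nearly fixed by the filter. The 3 were Cyp26a1, an enzyme that degrades retinoic acid and is also used in anterior neural plate, Greb1 and Wnt3a. Cyp26a1 was at 0.125 and 0.194 FPKM in mESC and 48.1, 15.6, 16.7 and 15.9 FPKM in AntNPC (4.26), Greb1 rose from 0.8 and 0.272 to between 15 and 22.9 FPKM (3.76), and Wnt3a, a WNT ligand of tailbud and dorsal midline, was at 0.106 and 0.12 FPKM in mESC and 0.627, 14.3, 12.7 and 13.7 FPKM in AntNPC (2.92).

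Of 7 measured primitive streak and mesoderm genes 3 fell and 1 rose, with T under 1 FPKM in every library. Of the 7, Eomes and Tcf15 were under 1 FPKM in all AntNPC libraries, and 2, Pdgfra among them, in both mESC libraries. The direction of these was nearly fixed by the filter. Eomes, a T-box factor of the streak, fell from 2.24 and 2.96 to between 0.21 and 0.385 FPKM (-1.51), Tcf15, a mesoderm bHLH factor, from 7.96 and 62.4 to between 0.271 and 0.716 FPKM (-3.99; -2.58 with mESC replicate 1 alone), and Snai1 from 2.76 and 1.53 to between 0.509 and 1.6 FPKM (-0.73; -0.45 and not called without mESC replicate 1, adjusted p = 0.22). Pdgfra, a growth factor receptor of mesoderm and of glial progenitors, rose from 0.494 and 0.0606 to between 3.18 and 7.1 FPKM (2.36). Among 9 measured endoderm genes 5 rose and 4 fell, while the defining factors Sox17, Foxa2 and Gata6 were under 1 FPKM in every library. A rise was nearly fixed for the 2 of the 9 that were under 1 FPKM in both mESC libraries. The 5 were the chemokine receptor Cxcr4 (from 2.05 and 0.237 to between 26.7 and 32.6 FPKM), the endocytic adaptor Dab2, the basement membrane collagens Col4a1 and Col4a2, and Pdgfra. The 4 were Trh and the basement membrane genes Sparc, Lama1 and Lamb1, and each of them lost its call when 1 mESC library was left out. Trh, which encodes a releasing hormone, was at 35.1 and 365 FPKM in mESC and 19.6, 3.65, 3.89 and 5.05 FPKM in AntNPC (-3.98; -2.31 with mESC replicate 1 alone, adjusted p = 0.089). Sparc was at -0.74 (adjusted p = 0.056) and Lama1 at -0.77 (adjusted p = 0.073) with mESC replicate 1 alone, and Lamb1 at -0.37 (adjusted p = 0.24) with replicate 2 alone. Without mESC replicate 2, 5 of this list rose and 1 fell.

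Of 11 trophoblast genes 7 fell, 1 rose and 3 did not pass, with Cdx2 under 0.1 FPKM in every library. Of the 11, 5 were under 1 FPKM in all AntNPC libraries and entered through mESC alone, so that a fall was nearly fixed for them. Tfap2c, an AP-2 factor of trophoblast and germ cells, fell from 23.7 and 12.9 to between 0.657 and 2.19 FPKM (-2.81), Tead4 from 9.25 and 5.56 to between 0.545 and 0.792 FPKM (-2.31) and the keratin Krt7 from 3.86 and 1.74 to between 0.0615 and 0.208 FPKM (-1.68). For neural crest and surface ectoderm the list had 10 measured genes, with 3 rising and 3 falling, beside 32.3% and 17.7% over all 12481 genes. Sox10 was under 1 FPKM throughout. Of the 10 genes, 5 were under 1 FPKM in both mESC libraries and 2 in all AntNPC libraries, so that their direction was nearly fixed. The 3 that rose were Ets1 (from 1.71 and 0.359 to between 6.16 and 12.7 FPKM), the dorsal neural tube factor Pax3 (from 0 and 0.00698 to between 0.471 and 1.8 FPKM) and the homeobox gene Msx1 (from 0.454 and 0.337 to between 1.72 and 5.84 FPKM), which did not pass with mESC replicate 1 alone (1.31, adjusted p = 0.068). The 3 that fell were Foxd3, the epidermal factor Grhl3 (-2.5) and the neurotrophin receptor Ngfr (-1.67). Summed levels were 111 and 106 FPKM in mESC and 86.4 to 105 FPKM in AntNPC for trophoblast genes and 27.9 and 48.4 and 16.7 to 30.2 FPKM for the crest list. Of 5 fibroblast and feeder markers measured 3 rose (Col1a2, Col6a1 and Col6a2), with 3 of the 5 under 1 FPKM in both mESC libraries. Col1a2, a fibrillar collagen, was at 0.0566 and 0.0846 FPKM in mESC and 4.47, 10.9, 9.79 and 9.53 FPKM in AntNPC (3.12), Col6a1 rose from 0.121 and 0.0328 to between 0.943 and 1.29 FPKM, Col6a2 from 0.444 and 0.222 to between 1.28 and 1.52 FPKM (not called with mESC replicate 1 alone, 0.72, adjusted p = 0.068), and the sum of the list was 13.3 and 6.37 FPKM in mESC and 16.3 to 19.6 FPKM in AntNPC. Of 6 glial genes 4 rose at low levels, among them Mbp, Pdgfra and Slc1a2, with Gfap under 1 FPKM in every library. The summed level of the whole list was 17.9 and 5.26 FPKM in mESC and 20.3 to 29.6 FPKM in AntNPC. Of the microglia and blood markers Cd68, a lysosomal protein, fell from 42.5 and 42.2 to between 3.27 and 6.31 FPKM (-3.09), and 10 of the 12 were under the entry level, with Ptprc, Hbb-bs and Hbb-bt listed at 0 in all 6 libraries. The part of such cells in the results was not tested.

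Genes of differentiating neurons were only in part above the entry level. Of 29 in the table, 14 were measured, of which 8 rose, 1 fell and 5 did not pass, and with mESC replicate 1 alone 7 rose and 3 fell. A rise was nearly fixed for the 7 of the 14 that were under 1 FPKM in both mESC libraries. Map2, a microtubule-associated protein of neurons and progenitors, was at 1.72 and 0.325 FPKM in mESC and 17.4, 27.8, 29.8 and 29.7 FPKM in AntNPC (3.81, limma adjusted p = 1.31e-05). Rbfox3, the neuronal splicing factor known as NeuN, rose from 0.762 and 0.28 to between 4.22 and 6.06 FPKM (2.02) and Snap25, a synaptic fusion protein, from 0.108 and 0.0664 to between 1.86 and 2.26 FPKM (1.47). The 1 that fell was Stmn2, a stathmin of growing axons, which was at 127 and 303 FPKM in mESC and 24.2, 19.6, 21.9 and 21.7 FPKM in AntNPC (-3.11 ± 0.30, adjusted p = 1.02e-05). The level of this neuronal gene was therefore over 5 times higher in each stem cell library than in any progenitor library.

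Notch signalling keeps neural progenitors from becoming neurons. Of 18 Notch pathway genes 9 rose, 2 fell and 7 did not pass, with a median of 1.2. The target Hes5 was at 0.575 and 0.212 FPKM in mESC and 13.1, 7.3, 7.43 and 6.54 FPKM in AntNPC (2.75 ± 0.24, limma adjusted p = 5.25e-06), Hes3 rose from 0.0302 and 0.0779 to between 6.36 and 9.39 FPKM (3.06), and Lfng, a glycosyltransferase that tunes the receptors, from 2.71 and 2.41 to between 21.2 and 36.3 FPKM (3.17). The 2 that fell were Rbpj, the DNA-binding partner of Notch, from 45.1 and 43.4 to between 21.5 and 35.1 FPKM (-0.77), and Rfng (-0.51). Rbpj missed the threshold without either mESC library (adjusted p = 0.053 both times).

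WNT, BMP and Hedgehog signals pattern the neural tube. Of 17 WNT feedback and target genes 9 rose, 2 fell and 6 did not pass, in cells that had been under a WNT inhibitor from day 2. Apcdd1, a membrane-bound WNT antagonist that WNT induces, was at 1.34 and 0.678 FPKM in mESC and 25, 28.7, 25.6 and 26.8 FPKM in AntNPC (3.79 ± 0.26, limma adjusted p = 8.89e-07). The secreted antagonists Frzb and Sfrp1 went from 0.0387 and 0.0693 to 26.8, 12.9, 14.3 and 12 FPKM (3.98) and from 11.8 and 10.2 to between 50.8 and 58.1 FPKM (2.2). The 2 that fell were Notum, a secreted enzyme that inactivates WNT ligands, from 2.03 and 13.6 to between 0.218 and 0.471 FPKM (-2.36; -1.22 with mESC replicate 1 alone) and the WNT effector Tcf7, from 41.6 and 23.5 to between 14.1 and 21.2 FPKM (-0.90; -0.50 and not called with mESC replicate 2 alone, adjusted p = 0.067). In the BMP list 8 of 17 rose, none fell and 9 did not pass. A rise was nearly fixed for the 4 of the 17 that were under 1 FPKM in both mESC libraries. The BMP list had 7 that rose and 2 that fell with median-of-ratios scaling, and 4 and none with the 6 WT libraries alone. Its receptor gene Bmpr1a was at 16.3 and 4.63 FPKM in mESC and 40.0 to 42 FPKM in AntNPC (2.1; 1.29 with mESC replicate 1 alone), and the ligand Bmp7 at 7.78 and 1.09 FPKM in mESC and 11.3 to 12.2 FPKM in AntNPC (1.56; 0.52 and not called with mESC replicate 1 alone, adjusted p = 0.066). Id2, an inhibitor of bHLH factors, rose from 12.4 and 24.9 to between 39.5 and 56.7 FPKM (1.44).

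Retinoic acid genes were split: 4 of 13 rose, 5 fell and 4 did not pass, among them Aldh1a2, Crabp1 and Dhrs3. Over all 12481 genes 32.3% rose and 17.7% fell, so the count of rises was near that share. Of the 13, 2 were under 1 FPKM in both mESC libraries and 2 in all AntNPC libraries, so that their direction was nearly fixed. Crabp2, the carrier that delivers retinoic acid to the nucleus, was at 8.99 and 7.15 FPKM in mESC and 299, 477, 566 and 558 FPKM in AntNPC (5.68 ± 0.30, limma adjusted p = 1.68e-07). With Cyp26a1, the retinol transporter Stra6 (2.75) and the retinol dehydrogenase Rdh10 (0.83) rose. The receptors Rara and Rarg fell from 15.7 and 37.1 to between 5.73 and 7.43 FPKM (-1.69; -1.1 with mESC replicate 1 alone) and from 24.4 and 69.2 to between 8.88 and 20.2 FPKM (-1.79; -1.06 with mESC replicate 1 alone). Stra8, the germ cell target, fell from 10.9 and 14.2 FPKM and was listed at 0 in 2 AntNPC libraries, Rbp4 fell by 1.22, and Aldh1a3, which fell from 2.3 and 2.91 to between 0.587 and 0.901 FPKM, was not called without mESC replicate 2 (-0.95, adjusted p = 0.064). In the Hedgehog pathway 6 of 11 genes rose, 2 fell and 3 did not pass (Ptch1, Gli2 and Cdon). The transducer Smo rose from 8.29 and 7.66 to between 63.3 and 67.2 FPKM (2.88), the co-receptor Gas1 from 0.646 and 0.194 to between 16.7 and 25 FPKM (4.06) and Gli3, the main repressor, from 2.1 and 1.09 to between 22.7 and 25.2 FPKM (3.29). The target Gli1 was at 14.1 and 24.6 FPKM in mESC and 0.383, 0.322, 0.223 and 0.361 FPKM in AntNPC (-3.9 ± 0.20, adjusted p = 1.4e-07). Smo, Gas1 and Gli3 thus rose while the target Gli1 fell.

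Germline genes, many of which stem cells grown with serum transcribe in part, fell almost as a group. Of 20 measured, 19 fell, none rose and Sycp1 did not pass, with a median of -2.66 beside 0.24 over all 12481 genes. Their summed level was 432 and 556 FPKM in mESC and 12.7 to 19.8 FPKM in AntNPC, and 16 of the 20 were under 1 FPKM in all AntNPC libraries. Because these had entered the comparison through mESC, the count is a description. Tuba3a, a testis alpha-tubulin with a near-identical paralog, was at 90.0 and 158 FPKM in mESC and 0.286, 0.395, 0.236 and 0.28 FPKM in AntNPC (-6.53). Rpl10l, a retrogene that encodes a ribosomal protein of spermatocytes, was at 52.5 and 125 FPKM in mESC and 0.149, 0.226, 0.187 and 0.287 FPKM in AntNPC (-6.08), and its reads may be shared with its parent gene. Hormad1, a protein of the meiotic chromosome axis, was at 36.7 and 20.5 FPKM in mESC and 0.0525, 0.0523, 0.144 and 0.139 FPKM in AntNPC (-4.7 ± 0.22, limma adjusted p = 9.78e-08). Of 11 genes of the cleavage-stage (2-cell-like) program only Zscan4c was measured, and it did not pass (-1.21). It was called as a fall with a pseudocount of 0.1 FPKM and with the 6 WT libraries alone. The summed level of the 11 was 8.9 and 7.57 FPKM in mESC and 0.272 to 0.652 FPKM in AntNPC.

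The promoters of these genes were read because the group moved together. RefSeq promoters (GRCm38.p6, from 250 bases before to 50 bases after the start) were at hand for 16 of the 20. The E-box CACGTG, which reads the same on both strands, stood in 9 of the 16 (56.2%), beside 12% of the 9299 among the 12481 genes that had a promoter in the table and 7.15% of all 32851 promoters. The motif TCCCGC, searched on both strands, stood in 10 of the 16 (62.5%), beside 41.7% and 20.0%. The 6 stretches of 30 bases shown here, picked from the 9, carry the E-box in capitals, in the direction of the gene. They belong to germline genes that fell. The stretches lie within 250 bases before the start, at chr13:112652322-112652351 (minus strand) for Ddx4, chr3:95559608-95559637 (plus) for Hormad1, chr6:49395472-49395501 (plus) for Stk31, chr10:88459511-88459540 (plus) for Sycp3, chr1:166238950-166238979 (minus) for Mael and chrX:134476522-134476551 (minus) for Taf7l.
Ddx4: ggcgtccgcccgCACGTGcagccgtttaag
Hormad1: caaagggtgcgcCACGTGccagtgacagtt
Stk31: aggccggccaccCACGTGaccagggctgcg
Sycp3: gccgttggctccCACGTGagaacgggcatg
Mael: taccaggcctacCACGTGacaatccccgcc
Taf7l: accctcttatacCACGTGacagaactcgcc
A match is a description of these letters and not a measured binding site. Their changes were -2.51 for Ddx4, an RNA helicase of germ cells, -3.08 for the kinase gene Stk31, -3.46 for Sycp3 of the synaptonemal complex, -3.86 for the piRNA factor Mael and -2.05 for Taf7l, which encodes a germ cell subunit of TFIID.

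Genes of DNA methylation went both ways. Of 15 genes of DNA methylation and its removal 4 rose, 3 fell and 8 did not pass, and after length correction 2 rose and 5 fell. Over all 12481 genes 32.3% rose and 17.7% fell, so the counts of 4 and 3 were near those shares. Dnmt3l, the catalytically inactive partner of the de novo methyltransferases, was at 139 and 268 FPKM in mESC and 1.42, 1.3, 1.36 and 1.43 FPKM in AntNPC (-6.35 ± 0.35, limma adjusted p = 2.41e-07). Dnmt3b, a de novo methyltransferase, was at 24.1 and 15.7 FPKM in mESC and 102, 52.9, 49.7 and 52.2 FPKM in AntNPC (1.6 ± 0.36, adjusted p = 0.00379), with AntNPC replicate 1 the highest. Dnmt3a, its paralog, was at 27.1 and 20.5 FPKM in mESC and 32.8, 31, 28.8 and 30.1 FPKM in AntNPC (0.36 ± 0.30, adjusted p = 0.341), and after length correction its difference had the opposite sign (-0.43, adjusted p = 0.07). Of the TET enzymes, which oxidize methylcytosine, Tet2 fell from 12 and 12 to between 1.21 and 2.76 FPKM (-2.04) and Tet3 rose from 0.499 and 0.168 to between 7.19 and 8.32 FPKM (2.7). Zfp57, which protects methylation at imprints, fell from 105 and 315 to between 26.2 and 37.4 FPKM (-2.42), and Mbd1, a methyl-CpG binding protein, rose from 2.35 and 4.62 to between 7.45 and 9.53 FPKM (1.17) but was not called after quantile normalization (0.72, adjusted p = 0.054) or length correction (0.70, adjusted p = 0.055). Dnmt1, the maintenance methyltransferase, passed (0.74 ± 0.28, adjusted p = 0.0455) but lost the call in 14 of 18 alternatives, among them with mESC replicate 1 alone (0.27, adjusted p = 0.45).

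Few PRC2 subunits passed. Of 13, 1 rose, 1 fell and 11 did not pass, with a median of -0.17. The methyltransferase Ezh2 was at 127 and 214 FPKM in mESC and 110.2, 162, 155 and 164 FPKM in AntNPC, groups that overlapped (-0.17 ± 0.30, limma adjusted p = 0.655). Its sign was positive with values rescaled to an equal sum per library (0.10), with quantile normalization (0.15) and without mESC replicate 2 (0.20). Eed was at 66.2 and 163 FPKM in mESC and 42, 54.7, 63.4 and 61.7 FPKM in AntNPC (-0.91 ± 0.33, adjusted p = 0.0397), and the accessory subunit gene Lcor was at 1.39 and 0.111 FPKM in mESC and 2.21, 2.29, 2.0 and 2.2 FPKM in AntNPC (0.96). Neither call held with mESC replicate 1 alone: Eed was at -0.27 (adjusted p = 0.48) and Lcor at 0.41 (adjusted p = 0.42). With median-of-ratios scaling none rose and 4 fell, and the same counts came from length correction.

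Of 24 subunits of the BAF chromatin remodelling complexes 12 rose, 3 fell and 9 did not pass, and after length correction 7 rose and 4 fell. Smarca2, which encodes the ATPase BRM, was at 0.402 and 0.997 FPKM in mESC and 18.5, 22.3, 22.4 and 24.8 FPKM in AntNPC (3.77 ± 0.24, limma adjusted p = 4.53e-07). Smarcc2, the subunit BAF170 that progenitors gain, rose from 8.88 and 5.08 to between 18.3 and 27.5 FPKM (1.7), and Arid2 from 8.49 and 4.07 to between 23.9 and 30.6 FPKM (1.99). The 3 that fell were Dpf1, a subunit of neurons, from 11.9 and 16.4 to between 3.01 and 5.45 FPKM (-1.67), Smarcd2 and Smarcd3. Smarcd2 was not called with mESC replicate 2 alone (-0.49, adjusted p = 0.064), nor Smarcd3 with replicate 1 alone (-0.63, adjusted p = 0.11).

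Among 31 RNA-binding and splicing regulators 16 rose, 2 fell and 13 did not pass (14 and 5 without mESC replicate 2). Beside the Lin28 paralogs, Igf2bp3, an mRNA-binding protein of embryonic tissue, was at 17.3 and 16.5 FPKM in mESC and 88, 102, 91.9 and 95.8 FPKM in AntNPC (2.41 ± 0.15, limma adjusted p = 4.07e-07). The 2 that fell were the epithelial splicing regulators Esrp1, from 7.95 and 6.89 to 3.13, 1.03, 1.01 and 0.966 FPKM (-1.81), and Esrp2, from 1.2 and 1.64 to between 0.248 and 0.367 FPKM (-0.89).

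The cadherins were exchanged. Cdh1, which encodes E-cadherin, was at 99.1 and 61 FPKM in mESC and 14.5, 4.1, 3.83 and 4.59 FPKM in AntNPC (-3.53 ± 0.40, limma adjusted p = 3.42e-05). Cdh2, which encodes N-cadherin, was at 0.825 and 0.885 FPKM in mESC and 50.7, 66.1, 63.1 and 63.4 FPKM in AntNPC (5.05 ± 0.36, adjusted p = 1.2e-06). The groups did not overlap for either gene, and AntNPC replicate 1 had the most Cdh1 and the least Cdh2 of the 4. Over 29 genes of epithelial junctions and the cadherin switch 9 rose, 15 fell and 5 did not pass (Cldn3, Ocln, Dsp, Dsc2 and Snai2). Of the 29, 7 were under 1 FPKM in both mESC libraries and 3 in all AntNPC libraries, so that their direction was nearly fixed. The mesenchymal and neural cadherins Cdh11 and Cdh4 rose from 0.138 and 0.104 to between 25.1 and 30.6 FPKM (4.65) and from 0.0464 and 0.253 to between 7.29 and 10.0 FPKM (3.11). The adhesion molecule Epcam fell from 96.8 and 85.4 to 10.4, 4.37, 4.16 and 3.98 FPKM (-3.87) and P-cadherin, Cdh3, from 11.9 and 9.42 to between 0.406 and 0.837 FPKM (-2.94).

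In the extracellular matrix list 10 of 20 fell, 5 rose and 5 did not pass (Itga3, Itga6, Itgav, Itgb1 and Itgb5). The basement membrane proteins perlecan and nidogen-2 fell: Hspg2 was at 37.8 and 80.1 FPKM in mESC and 10.4, 8.98, 9.84 and 7.66 FPKM in AntNPC (-2.47 ± 0.31, limma adjusted p = 7.39e-05), and Nid2 at 93.3 and 41.7 FPKM in mESC and 12.3, 16.2, 14.8 and 14.3 FPKM in AntNPC (-2.05). Fibronectin, Fn1, was at 130.0 and 139 FPKM in mESC and 33.2, 61.2, 59.9 and 59.9 FPKM in AntNPC (-1.35). The 5 that rose were the collagens Col1a2, Col4a1 (from 9.65 and 4.73 to between 16.4 and 22.5 FPKM), Col4a2 (from 4.32 and 1.73 to between 11.1 and 12.8 FPKM) and Col18a1 and the proteoglycan gene Vcan. With mESC replicate 1 alone 3 of the list rose and 9 fell, and neither Col18a1 (0.68, adjusted p = 0.076; 0.65, adjusted p = 0.068, with replicate 2 alone) nor Vcan (0.56, adjusted p = 0.27) was called.

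Of 26 axon guidance and adhesion genes 17 rose, 2 fell and 7 did not pass, with a median of 1.89. The 10 of the 26 under 1 FPKM in both mESC libraries entered through AntNPC alone, so a rise was nearly fixed for them. Sema3a, a repulsive guidance ligand, was at 0 and 0.179 FPKM in mESC and 28, 21.1, 22.4 and 23.4 FPKM in AntNPC (4.5 ± 0.17, limma adjusted p = 2.94e-08). The ephrin ligand Efna5 rose from 0.492 and 0.0868 to between 27.7 and 33.8 FPKM (4.62) and the receptor Ephb1 from 0.0227 and 0.0379 to between 21.1 and 28 FPKM (4.55). The 2 that fell were also Eph receptors: Epha2, a receptor of stem cells, was at 11 and 43.9 FPKM in mESC and 0.349 to 0.517 FPKM in AntNPC (-4.0). Ephb3 was at 16.4 and 5.77 FPKM in mESC and 6.69, 4.84, 4.02 and 4.29 FPKM in AntNPC, groups that overlapped, and its call (-0.89, adjusted p = 0.0455) was lost with mESC replicate 2 alone (-0.20, adjusted p = 0.53).

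Genes of cholesterol synthesis and uptake rose together. Of 23, 18 rose, none fell and 5 did not pass (Pmvk, Fdft1, Ebp, Insig1 and Stard4), with a median of 1.44, and the summed level was 959 and 563 FPKM in mESC and 1706 to 2221 FPKM in AntNPC. Serum, a source of lipoprotein cholesterol, was in the mESC medium and not in that of AntNPC, and its part in the result cannot be told apart from that of cell type. Nsdhl, an enzyme of the sterol part of the pathway, was at 12.2 and 10.7 FPKM in mESC and 50.5, 43, 41.9 and 43.4 FPKM in AntNPC (1.88 ± 0.15, limma adjusted p = 2.36e-06). Sqle, squalene epoxidase, was at 37.8 and 27.1 FPKM in mESC and 122, 103, 96.1 and 99.8 FPKM in AntNPC (1.68). Of the 15 members with a RefSeq promoter, 1 held a sterol regulatory element of the letters TCACNCCAC on either strand (6.67%), beside 1.42% of the 9299. It is that of Hmgcs1, HMG-CoA synthase (2.53), shown with the element in capitals because it is the only one found, at chr13:119690204-119690233 (plus strand).
Hmgcs1: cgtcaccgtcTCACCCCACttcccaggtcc

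Of 23 glycolysis genes 8 fell, 3 rose and 12 did not pass. Pfkp, the platelet form of phosphofructokinase, was at 142 and 165 FPKM in mESC and 7.44, 9.01, 8.48 and 9.16 FPKM in AntNPC (-4.02 ± 0.34, limma adjusted p = 3.83e-06), and the muscle form Pfkm at 25.2 and 13.9 FPKM in mESC and 32.6 to 37.1 FPKM in AntNPC (0.85; 0.45 and not called with mESC replicate 1 alone, adjusted p = 0.071). Hexokinase 2, Hk2, fell from 38.5 and 84.1 to between 8.43 and 12.9 FPKM (-2.38), and the lactate dehydrogenase gene Ldhb from 541 and 629 to between 71 and 95.4 FPKM (-2.85). The tissue-restricted enolases rose, Eno2 from 13.4 and 1.34 to between 18.9 and 41.2 FPKM (2.49; 1.18 with mESC replicate 1 alone and 3.8 with replicate 2 alone) and Eno3 from 6.89 and 17.8 to between 25.5 and 41 FPKM (1.61; 0.99 with mESC replicate 2 alone). Gapdh was listed at 0 in AntNPC replicate 1 and at 1950.0 to 2131 FPKM in the other 3, which may be a failed estimate, and did not pass. With mESC replicate 2 alone 13 of the list fell.

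Of 19 genes of serine and one-carbon metabolism and of the amino acid response 12 fell, none rose and 7 did not pass, with a median of -0.87. Shmt2, the mitochondrial serine hydroxymethyltransferase, was at 86.4 and 173 FPKM in mESC and 40.4, 40.1, 40.1 and 40.1 FPKM in AntNPC (-1.58 ± 0.24, limma adjusted p = 0.000261). Asns, asparagine synthetase, was at 200.03 FPKM in mESC replicate 1, 510.5 FPKM in replicate 2 and 123, 51, 56.5 and 52.9 FPKM in AntNPC (-2.26), and Trib3, a pseudokinase induced by ATF4, fell from 21.6 and 15.8 to between 1.32 and 2.65 FPKM (-2.83).

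Serum and immediate early response genes were mixed, with 3 of 19 rising, 4 falling and 12 not passing (6 and 3 without mESC replicate 2, 8 falling without replicate 1). Thbs1, the matrix protein thrombospondin, was at 0.152 and 0.222 FPKM in mESC and 23.3, 36.7, 42.7 and 42.6 FPKM in AntNPC (4.94 ± 0.57, limma adjusted p = 3.97e-05). The focal adhesion gene Zyx rose from 7.32 and 14.4 to between 23.8 and 33.3 FPKM (1.42) and Atf3 from 1.38 and 0.285 to between 2.11 and 3.29 FPKM (1.02; 0.57 and not called with mESC replicate 1 alone, adjusted p = 0.14). The AP-1 genes Fos and Junb fell from 4.03 and 16.6 to between 0.339 and 0.787 FPKM (-2.54; -1.63 with mESC replicate 1 alone) and from 10.5 and 38.3 to between 1.81 and 2.98 FPKM (-2.57; -1.68), and Ier3 from 8.32 and 8.54 to between 0.597 and 1.65 FPKM (-2.14). The call of the fourth, Jund (-0.96, adjusted p = 0.0499), was lost with mESC replicate 1 alone (-0.46, adjusted p = 0.39).

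Few proliferation genes passed, whereas single regulators of the G1 phase changed strongly. Of 20 genes of DNA replication and mitosis 17 did not pass, 3 rose and none fell, with a median of 0.23. These 3 were the proliferation marker Mki67, from 32.9 and 16.7 to between 45.7 and 59.8 FPKM (1.2; 0.73 with mESC replicate 1 alone), and the mitotic kinase genes Aurkb and Plk1. Aurkb was not called with mESC replicate 1 alone (0.37, adjusted p = 0.052), nor Plk1 with replicate 2 alone (0.13, adjusted p = 0.38). Without mESC replicate 1 the list had 6 that rose and 2 that fell, and without replicate 2 it had 5 that rose. Of 20 cell cycle inhibitors, cyclins and p53 targets 4 rose, 4 fell and 12 did not pass. Cyclin D2, Ccnd2, was at 0.38 and 0.962 FPKM in mESC and 37.5, 53.5, 49.7 and 60.6 FPKM in AntNPC (4.94 ± 0.33, limma adjusted p = 7.23e-07). Its kinase partner gene Cdk6 fell from 5.56 and 5.5 to between 0.471 and 1.06 FPKM (-1.94). Cdkn1c, an inhibitor of G1 kinases, rose from 11.9 and 6.91 to between 33.3 and 51.3 FPKM (2.16), while Cdkn2a, which encodes the inhibitor p16 and the p53 activator ARF, was at 17 and 20.1 FPKM in mESC and 1.67, 0.734, 0.897 and 0.914 FPKM in AntNPC (-3.27 ± 0.25, adjusted p = 2.03e-06). The other 4 calls each needed 1 mESC library. Rb1 (1.74) was at 0.56 (adjusted p = 0.1), Sesn1 (0.95) at 0.26 (adjusted p = 0.44) and Ccne1 (-0.99) at -0.33 (adjusted p = 0.19) with mESC replicate 1 alone. Cdkn2b (-1.29) was at -0.82 (adjusted p = 0.056) with replicate 2 alone. With median-of-ratios scaling 8 of the list fell.

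Of 20 imprinted genes measured 9 rose, 3 fell and 8 did not pass, with a median of 1.34 and a summed level of 359.6 and 294 FPKM in mESC and 1047 to 1339.8 FPKM in AntNPC. Mest, a paternally expressed hydrolase gene, was at 20.1 and 9.32 FPKM in mESC and 279.9, 511, 480.1 and 513 FPKM in AntNPC (4.88 ± 0.42, limma adjusted p = 4.4e-06), with AntNPC replicate 1 the lowest of the 4. Gnas, which encodes the stimulatory G protein subunit, rose from 56.3 and 55.4 to between 354 and 407 FPKM (2.75) and Magel2, a paternally expressed neural gene, from 0.0223 and 0.052 to between 3.65 and 4.17 FPKM (2.23). The 3 that fell were Phlda2, Ascl2 and Slc22a18, maternally expressed genes of 1 cluster on chromosome 7, and Cdkn1c, a maternally expressed gene of the same cluster, rose (2.16). Phlda2 was at 39.6 and 110.5 FPKM in mESC and 8.64, 2.5, 2.9 and 3.36 FPKM in AntNPC (-3.78), Ascl2 fell from 8.03 and 2.02 to between 0.208 and 0.555 FPKM (-1.92; -1.13 with mESC replicate 2 alone), and Slc22a18 was not called with mESC replicate 2 alone (-0.66, adjusted p = 0.063).

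**Figure D4:**
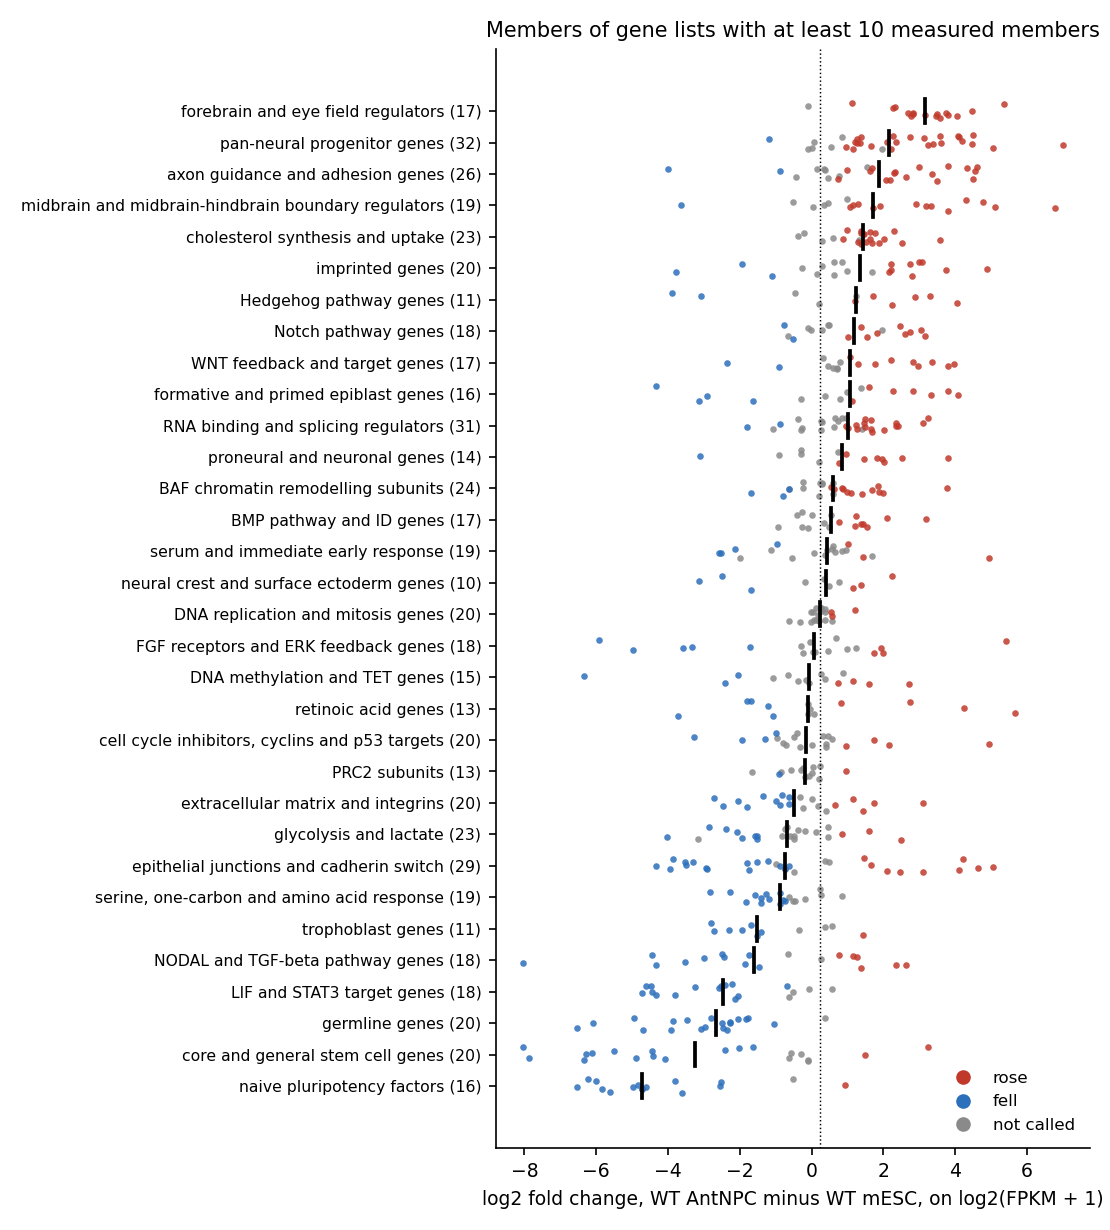
Log2 fold change (AntNPC minus mESC, WT) of each measured member of the gene lists with at least 10 such members, coloured by call, with a black bar at each list's median and a dotted line at 0.24, the median of all 12481 genes. The naive factors, of which 10 of 16 entered through mESC alone, have the lowest median, -4.72. The forebrain and eye field regulators, of which most entered through AntNPC, have the highest, 3.15.

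Several of the largest changes lay outside these lists. Prtg (chromosome 9, 72806874 to 72917291), an immunoglobulin-type receptor of the early neural tube, was at 0.525 and 0.482 FPKM in mESC and 145, 140.4, 120.3 and 127 FPKM in AntNPC (6.47 ± 0.22, limma adjusted p = 2.42e-08). Sall2, a spalt-type zinc finger gene, was at 0.805 and 0.914 FPKM in mESC and 112, 122, 109 and 115 FPKM in AntNPC (5.96). Wls, the carrier that WNT ligands need for secretion, was at 0.359 and 0.759 FPKM in mESC and 76.2, 227, 219.9 and 229 FPKM in AntNPC (6.81). Like Wnt1 it was lowest in AntNPC replicate 1, while Prtg and Sall2 hardly differed among the 4 libraries. Rgma, a repulsive guidance protein and BMP co-receptor, rose from 0.645 and 0.838 to 90.9, 72.4, 68.4 and 67.1 FPKM (5.43). Of the largest falls, Upp1, uridine phosphorylase of pyrimidine salvage, was at 311 and 563 FPKM in mESC and 1.34, 1.19, 1.7 and 1.44 FPKM in AntNPC (-7.44 ± 0.43, adjusted p = 2.75e-07). Hspb1, a small heat shock protein, was at 189 and 748 FPKM in mESC and 3.22, 2.32, 2.29 and 2.32 FPKM in AntNPC (-6.74), and Gpx2, a glutathione peroxidase of epithelia, at 112 and 189 FPKM in mESC and 0.552, 0.101, 0.392 and 0.956 FPKM in AntNPC (-6.64).

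The same contrast was available in the line labelled EED-/-, in libraries that were not shared with the WT contrast. With 1 line per genotype, an effect of the line and one of the labelled genotype cannot be told apart. In that line 14.4% of all 13678 genes rose and 16.7% fell. Of the 4034 genes that rose in WT, 1567 (38.8%) rose there and 65 fell, and of the 2215 that fell in WT, 1298 (58.6%) fell there and 11 rose. Seen from the other side, 88.1% of the 1779 genes that rose there also rose in WT, and 72.1% of the 1800 that fell there fell in WT. These shares rest on counts that moved with the setting, as 816 rose and 992 fell there with the replicate number as a block, 2907 and 2792 without WT mESC replicate 1, and 2909 and 2792 without WT mESC replicate 2. Across the 12481 genes the changes correlated at 0.787, a description over genes measured in the same libraries. The difference of the changes itself (interaction) passed for 474 genes with a more positive and 1286 with a more negative change in the line labelled EED-/-, beside 3.98% and 11.3% of all genes tested. The counts of 474 and 1286 were 789 and 848 with median-of-ratios scaling and 874 and 873 after length correction, so that the excess of negative differences rested on the scaling. Leaving out mESC replicate 2 gave 1359 and 2458, and mESC replicate 1 gave 711 and 2123, while the replicate block gave 239 and 597.

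Only genes called in the WT contrast were considered for naming here. The WT change is part of the difference, so this choice favoured differences opposite in sign to the WT change. Of the 1286 negative differences 1165 were in genes that rose in WT, and of the 474 positive ones 447 were in genes that fell. Among genes called in WT, the 5 of smallest adjusted p with a negative difference were Fgfr2, Lmx1a, 2610034M16Rik, Rgma and Stra6. Fgfr2 was at 14.9 and 18.2 FPKM in mESC and 27.2, 32.8, 28.6 and 33.7 FPKM in AntNPC of the line labelled EED-/-, a change of 0.85 ± 0.19 against 5.43 ± 0.19 in WT (difference -4.58 ± 0.27, limma adjusted p = 1.61e-05). Its level was thus higher than in WT before differentiation and lower than in WT after it, with no overlap. Lmx1a was at 0.964 and 1.31 and 0.378, 0.415, 0.335 and 0.524 FPKM there, so that it fell (-0.59) where it rose in WT (3.32; difference -3.91 ± 0.28, adjusted p = 3.28e-05). Rgma rose by 1.92 against 5.43 in WT, and Stra6 changed by -0.72 against 2.75. The uncharacterized gene 2610034M16Rik was at 0.74, 0.316, 0.394 and 0.397 FPKM in AntNPC labelled EED-/- and 13.7 to 20.1 FPKM in WT AntNPC (difference -3.8). Positive differences among genes called in WT were led by Scgb1c1, Dpys, Mov10, Gli1 and Enpp3. Scgb1c1, a secretoglobin, was listed at 0 in all AntNPC libraries of both lines. Dpys, a pyrimidine-degrading enzyme, fell by 5.26 in WT, from 38.7 and 48.6 to 0.112, 0.228, 0.137 and 0.147 FPKM, and changed by -2.0 there, from 7.85 and 4.37 to 0.878, 0.712, 0.732 and 0.607 FPKM. Mov10, an RNA helicase, was at 75.4 and 58.2 FPKM in mESC and 4.84, 4.33, 5.42 and 4.34 FPKM in AntNPC in WT and at 50.1 and 59.8 and 27.5, 26.9, 28.6 and 30.4 FPKM there (difference 2.63 ± 0.22, adjusted p = 6.57e-05). Enpp3, an ectonucleotidase, fell in WT from 9.17 and 9.84 to between 3.19 and 3.57 FPKM and rose there from 4.37 and 5.54 to 29.9, 20.4, 19.4 and 17.6 FPKM (difference 3.17 ± 0.29, adjusted p = 0.000115). Gli1 changed by -0.75 there against -3.9 in WT.

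**Figure D5:**
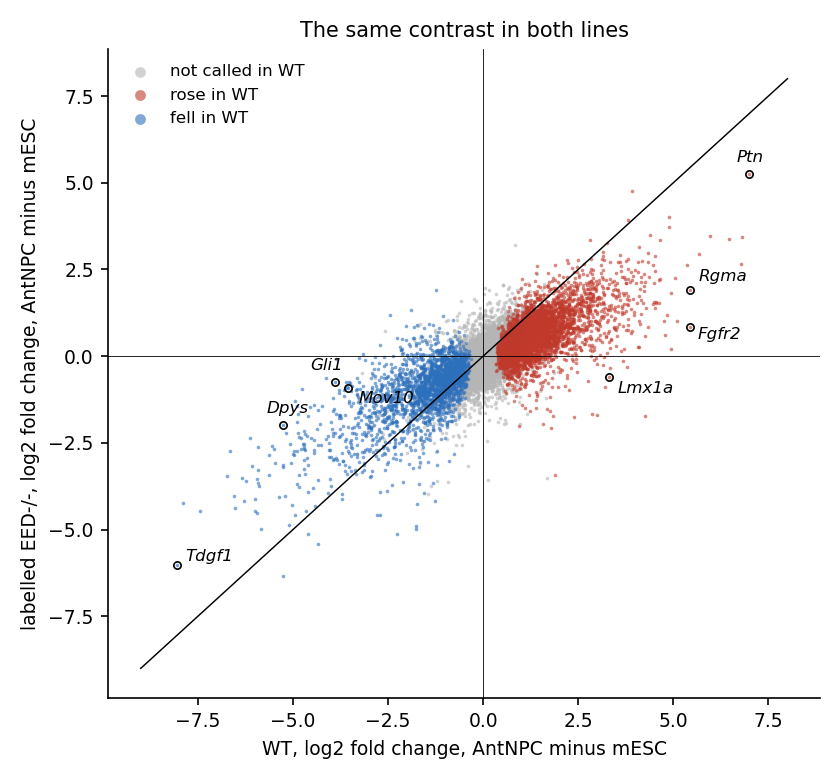
Each point is 1 of the 12481 genes, with its log2 fold change (AntNPC minus mESC) in WT on the horizontal axis and in the line labelled EED-/- on the vertical axis, coloured by its call in WT, with the line of equal change. Fgfr2 lies below the line of equal change with 0.85 against 5.43 in WT, and Lmx1a lies below 0 with -0.59 against 3.32.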

How the data were processed

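Per the labels' protocols, RNA came from Tripure extraction and libraries from the TruSeq v2 kit. The FPKM values were deposited by the authors in 1 table of 12 libraries. The submitters' processing notes name TopHat2, Cufflinks, SAMtools, FastQC and DESeq2 and the builds GRCm38 and mm10, with versions not given in the sources used here. Log2(FPKM + 1) values were fitted in limma 3.58.1 (R 4.3.3) with a mean per group for 4 groups over 12 libraries and a mean-variance trend. Genes with at least 1 FPKM in at least 2 of the 12 were tested, and called at a Benjamini-Hochberg adjusted p under 0.05, two-sided. An exact permutation test of 4 against 2 libraries cannot go below 0.0667. Positions and exonic lengths are from GENCODE M21 (GRCm38), matched for 21149 gene IDs. A library without a number in its label was taken as replicate 1. The model was tested on simulated data.

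Genes were named by rule: a fixed set and the 10 largest rises and falls with means of at least 5 FPKM and no overlap. To these came up to 3 genes per direction of each of 40 lists by adjusted p (all where 5 or fewer passed). For the difference between lines 5 per direction were taken, only from genes called in WT. Members that did not pass, and Klf4, Sox21, Fabp7, T and other defining markers under 1 FPKM, Hmgcs1 and the germline genes with printed promoters were named after their values were seen. Some genes of the rule are not reported here. The members and lists were chosen with earlier results of these data known. Alternatives were other pseudocounts, filters, scalings and fits, a replicate block and leaving out each WT library. The length correction was added after seeing the data.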

Additional observations from a re-analysis of the deposited data

Results flagged for a closer look

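One WT AntNPC library stood apart in many named genes. For each of the 199 genes named in the text by the rule, a ratio was taken from the 4 WT AntNPC values. It was the gap between the farthest value and its neighbour, divided by the range. Of these genes, 48 passed Dixon's critical value for 4 samples, which chance passes in about 1 of 20 groups. The share over all genes measured is not given here, so whether this count is particular to the named genes was not tested. Across all genes measured, replicate 1 correlated at 0.953 to 0.954 with replicates 2 to 4. Those correlated at 0.995 to 0.996 with each other. Replicate 1 was the one apart in all but 2 of the 48 genes. It was the highest for 28 genes, given here with the gap over the range: Asns (0.922), Cdh1 (0.929), Cdh3 (0.937), Cyp26a1 (0.968), Dnmt3b (0.94), Eomes (0.851), Epcam (0.939), Ephb1 (0.83), Esrp1 (0.972), Fgfr2 (0.883), Frzb (0.843), Hes5 (0.866), Hspb1 (0.974), Lhx5 (0.915), Lin28a (0.9), Msx1 (0.878), Nanog (0.88), Otx2 (0.865), Phlda2 (0.86), Pou5f1 (0.95), Rarg (0.942), Sall1 (0.857), Shisa2 (0.886), Shmt2 (0.868), Six3 (0.99), Slc22a18 (0.856), Sox9 (0.875) and Trh (0.912). It was the lowest for 18 genes, namely 2610034M16Rik (0.848), Eno3 (0.966), Fn1 (0.952), Gas1 (0.898), Lmx1a (0.877), Map2 (0.838), Mest (0.859), Mki67 (0.858), Ptn (0.836), Socs3 (0.894), Spred3 (0.877), Spry4 (0.85), Tfap2c (0.88), Vcan (0.916), Vim (0.842), Wls (0.94), Wnt1 (0.838) and Wnt3a (0.885). The other 2 were Dpf1 (0.833, replicate 3 the highest) and Sesn1 (0.908, replicate 3 the lowest). Genes that fell from mESC did not all lie on 1 side, since Pou5f1 and Nanog were the highest in replicate 1 and Socs3 and Tfap2c the lowest. The labels name no batch for it.

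The difference of the change between the line labelled EED-/- and WT passed the limma test for 474 genes with a positive and 1286 with a negative value. The negative values of the rule's genes were -4.58 for Fgfr2, -3.91 for Lmx1a, -3.8 for 2610034M16Rik, -3.52 for Rgma and -3.48 for Stra6. The positive values were 3.27 for Dpys, 3.17 for Enpp3, 3.15 for Gli1, 2.63 for Mov10 and 1.77 for Scgb1c1, the last on levels under 3 FPKM.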

How the results depend on the processing

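In WT the counts of genes that rose and fell (4034 and 2215) stayed within 1.5 times of these under every setting tried, with 3516 to 5233 rising and 1919 to 2992 falling when 1 WT library was left out. The counts in the line labelled EED-/- (1779 and 1800) were 816 and 992 with the replicate number as a block, and 1493 to 2909 and 1568 to 2792 without 1 WT library, which moved them through the shared spread. The counts of positive and negative differences (474 and 1286) were 239 and 597 with that block, 679 negative with quantile normalization, 789 and 848 with median-of-ratios size factors, 874 positive with length correction, and 329 to 1359 and 908 to 2458 without 1 WT library. Only numbers 1 and 2 are shared by all groups, so the numbers were not taken as pairs. Deviations from group means of same-numbered libraries correlated at 0.342 (number 1) and 0.141 (number 2) between WT mESC and WT AntNPC. WT mESC replicate 2 correlated more with WT AntNPC replicates 3 (0.388) and 4 (0.3) than with replicate 2. WT mESC replicate 1 was at -0.141, -0.388 and -0.3 with WT AntNPC replicates 2 to 4, since deviations of 2 libraries mirror each other. Deviations correlated at -0.693 between the mESC libraries of number 1 of both lines and at 0.582 between their AntNPC libraries of number 1. The WT counts were 2869 and 1596 with the block. Crossing the numbers of the EED-/- mESC libraries gave 405 and 1028 differences. Where 1 mESC library was left out, the lone one was assumed to vary like the other groups.

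Of 203 genes given by the rule, the direction turned for 4, none of them called in that setting. Ezh2 was at 0.10 with values rescaled to an equal sum per library, 0.15 with quantile normalization and, without 1 library, at -0.55 to 0.20. Sox2 was at 0.19 and 0.18 in the first 2 of these, 0.065 with length correction and 0.0060 with that correction without mESC replicate 2. Dnmt3a was at -0.43 and -0.25 in the last 2 settings and Dnmt1 at -0.0019 in the last. Between 0 and 26 of the named results lost their call in a setting, 25 of them without mESC replicate 2 and 12 without replicate 1. The cause was not tested. Dnmt1, Eed, Jund, Lcor, Sall1, Sesn1, Vcan, Plk1, Snai1, Ephb3, Lamb1 and Col18a1 also lost it without at least 1 AntNPC library. FPKM hold no depth, so counting error is unknown, and 2 mESC libraries limit the precision of every value.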

Other observations

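Chromosomes differed in their median change. The X chromosome had a median log2 fold change of 0.51, and 41.4% of its genes rose, beside medians of 0.09 to 0.41 and shares of 28.4% to 38.7% for the autosomes and 32.3% over all 12481 genes. The value was not adjusted for gene length or scaling.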
